A study of Homo sapiens with 16 samples.

Results

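The wildtype-addback wells are the 4 of 16 RNA-seq libraries in which MCF10DCIS.com cells carried an inducible wildtype PCSK5 allele and received no GDF11 during the culture. Which wells belong to the group follows from their labels, and no measured value enters that rule. MCF10DCIS.com is a human breast line of the MCF10A lineage that carries an introduced HRAS oncogene and forms lesions like ductal carcinoma in situ in mice. All 16 cultures came from 1 PCSK5-/- clone, made with Cas9 and a guide against exon 4 of PCSK5 and recovered in 10 ng/ml GDF11. That clone was given back a tetracycline-regulated, V5-tagged PCSK5 allele that the guide does not cut. The wildtype line is 1 polyclonal, hygromycin-selected pool, so the 4 wells are replicates of a culture and not of a line. Cells were seeded at 5000 per well on matrigel, a laminin-rich basement membrane extract, in assay medium with 5 ng/ml EGF and 2% matrigel. Doxycycline at 1 µg/ml was present from day 4, and RNA was taken on day 8. The other 12 libraries (M452I allele, T288P allele, and T288P allele with 250 ng/ml GDF11) were used only to scale the libraries and to see whether the same gene led a list there.

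PCSK5 encodes a proprotein convertase, a secreted protease that cuts the precursors of growth factors, among them GDF11, a ligand of the TGF-beta family. Such ligands bind pairs of serine/threonine kinase receptors, and antagonists such as follistatin-like proteins hold them away from those receptors. The mammary duct has an inner luminal layer (keratins KRT7, KRT8, KRT18 and KRT19) and an outer basal layer (KRT5, KRT14, KRT17 and TP63). Basal cells hold on to the basement membrane through hemidesmosomes, in which the integrin chains ITGA6 and ITGB4 and the collagen COL17A1 bind a laminin that contains LAMA3 and LAMB3.

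The 4 wells held 35.9, 40.3, 44.3 and 32.7 M (1000000) counts, and 22490 to 25335 genes had a count in a well. A level within a gene is given in CPM, counts per M counts of a library after TMM scaling. Levels of different genes are compared in RPKM, which is CPM divided by the length of the gene's annotated exons (their union) in kb. The SD of a ratio between genes covers the spread between wells and not the choice of length, so ratios that moved by more than 1.5 times with another length (the longest or the median annotated transcript of each gene) are given with a value for such a length. Ranks run over the 25991 genes with a length and a count in these wells. The 10 genes with most counts took 9.91% ± 0.422 (SD, n = 4) of a library and the 1000 genes with most counts took 65.8% ± 0.899. Mitochondrial genes took 4.55% ± 0.034. Of 19851 protein-coding genes with a length, 9101 (45.8%) reached a mean of 1 RPKM, 3155 (15.9%) reached 10 RPKM and 339 reached 100 RPKM, while 4880 (24.6%) had 0 counts. A count of 0 over the group allows up to 0.0202 CPM (3 counts over the 4 wells), for counting error only. Whether both mates of a read pair were counted separately is not given in the sources used here, and if they were, this bound is too low.

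The genes of this paragraph are protein-coding, with ribosomal protein and mitochondrial genes left out, while ranks run over all genes. The highest levels per length were those of TMSB10, an actin-binding peptide, at 9006 ± 1028 RPKM (rank 1, n = 4) and S100A14, a calcium-binding protein of epithelia, at 8049 ± 785 RPKM (rank 2). S100A14 had 7750, 8566, 7083 and 8796 RPKM in wells 1 to 4, and was also rank 4 by CPM. EEF1A1, a translation elongation factor, was rank 1 by CPM and rank 7 by RPKM. The next highest were ACTG1 (cytoplasmic actin, 3652 RPKM), FTH1 (ferritin heavy chain, 2844 RPKM), S100A6 (2056 RPKM), S100A2 (1936 RPKM) and the hair-type keratin KRT81 (1796 RPKM). ACTB, GAPDH and EEF2, genes of the cytoskeleton, glycolysis and translation, lay between 1144 and 1488 RPKM. Of FTH1's exon bases, 62.4% overlap a gene on the other strand, and KRT81 has close paralogs, so reads of those genes may be shared.

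In all, 665 genes of 32 lists had a length, and 309 of them (46.5%) reached 1 RPKM, against 45.8% of all protein-coding genes. At 10 RPKM the listed genes stood at 22.7% and all protein-coding genes at 15.9%. Lineage genes, a category that also holds the junction and cell cycle lists, reached 10 RPKM most often (60 of 139, 43.2%). Within it, epithelial junctions gave 18 of 29 and cell cycle genes 11 of 20. The basal and myoepithelial list gave 8 of 16, luminal 11 of 30, squamous and stress 11 of 33, and mesenchymal and EMT 1 of 11. Receptor genes (32 of 164, 19.5%) and secreted genes (47 of 233, 20.2%) followed, and matrix genes stood at 13 of 108 (12%), the lowest share of these 4 categories. Markers of other cell types reached it in 1 of 36 genes. The order of matrix and secreted genes depended on the length. With the longest transcript the share was 20.4% for matrix and 22.7% for secreted genes, but with the median transcript it was 35.2% and 30.5%, and at 10 CPM with no length it was 38% and 33%. The 3 leading genes held 42.9% of the summed RPKM of lineage genes, 49.0% of that of receptor genes, 49.3% of that of secreted genes and 78.9% of that of matrix genes. LAMB3 alone was 40.6% of the matrix sum.

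**Figure D1:**
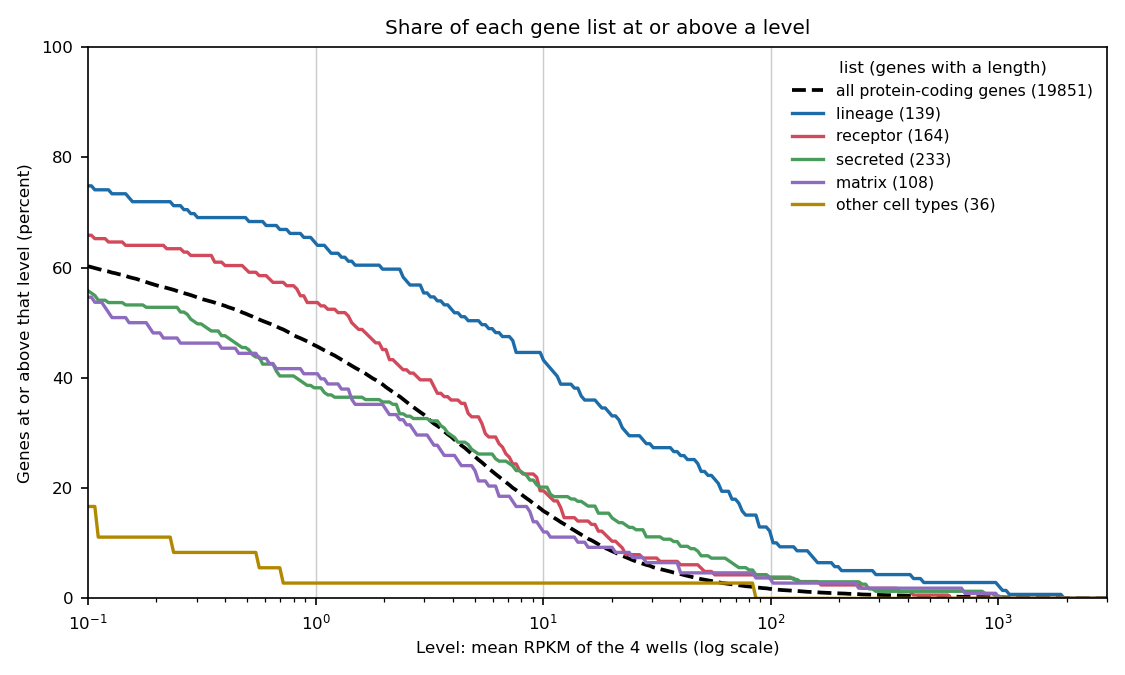
Share of the genes of each category (percent, vertical axis) at or above a mean level over the 4 wells (RPKM, log axis), with all 19851 protein-coding genes as a dashed line. The lineage line, which includes junction and cell cycle genes, lies above the dashed line from 0.1 to 1000 RPKM. It has 64.7% of its genes at 1 RPKM or more. The matrix line lies below the dashed line at 10 RPKM, and other cell types fall to 1 of 36 genes at 1 RPKM.

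The wells held basal and luminal keratins at high levels together. In bulk RNA, fewer cells of a type and less RNA per cell cannot be told apart, and neither can cells with both keratins and a mix of cells. Of 16 basal and myoepithelial genes, 10 reached 1 RPKM and 8 reached 10 RPKM. KRT17, a keratin of basal and stressed epithelium, had 1126, 1055, 1132 and 1100 RPKM (mean 1103 ± 35.1, rank 42, and rank 30 by CPM). KRT5, its basal type II partner, had 493, 431, 475 and 450 RPKM (mean 462 ± 27.7, rank 103). All wells lay close together for both, and KRT17 was higher than KRT5 in each. KRT14, the usual type I partner of KRT5, was far lower at 31.4, 23.6, 36.2 and 30.5 RPKM. KRT17 stood 37.0 ± 5.62 times above KRT14, between 31.3 and 44.8 times in single wells, and KRT5 stood 15.5 times above it. With the median transcript as length these ratios were 76.8 and 40.1. KRT14, KRT16 and KRT17 are close paralogs, and reads that fit more than 1 of them make the exact split uncertain.

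Basal adhesion and transcription factor genes were also present. CDH3 (P-cadherin) stood at 46.8 ± 2.30 RPKM, SNAI2, a repressor kept on in basal mammary cells, at 36.6 ± 7.18 RPKM, and TP63, the basal lineage factor, at 2.53 ± 0.630 RPKM. TP63 was higher in wells 1 and 3 (2.56 and 3.40 RPKM) than in wells 2 and 4 (1.99 and 2.16 RPKM). The contractile genes of myoepithelium were low or absent. ACTA2 (smooth muscle actin) stood at 1.48 RPKM, TAGLN at 0.873 RPKM, MYH11 at 0.0343 RPKM and CNN1 (calponin) had 0 counts. CALD1 (caldesmon), which many cell types express, stood at 14.5 RPKM.

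Of 30 luminal genes, 15 reached 1 RPKM and 8 had 0 counts. KRT7 led with 284, 265, 322 and 280 RPKM (SD 24.4, rank 160). The pair of simple epithelial keratins KRT18 (148 ± 12.7 RPKM) and KRT8 (99.8 ± 17.7 RPKM) followed. KRT8 had 89.4 and 81.1 RPKM in wells 1 and 3 and 120 and 109 RPKM in wells 2 and 4. KRT18 was higher than KRT8 in 4 of 4 wells, by 1.5 times on average, but with the longest transcript as length the ratio was 0.961 and with the median transcript 0.453. KRT19, in contrast, was at trace level (0.124 RPKM, 44 counts in all 4 wells). Surface genes of luminal and simple epithelium were high: CLDN7 (a claudin) at 97.4 RPKM, CD24 at 76.3 RPKM, EPCAM at 52.3 RPKM and CLDN4 at 48.0 RPKM. ALDH1A3, the retinaldehyde dehydrogenase of luminal progenitors, stood at 56.1 RPKM.

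ESR1 (oestrogen receptor) had 0.0110 RPKM. PGR (progesterone receptor), TFF1 and TFF3 (trefoil peptides induced by oestrogen) had 0 counts. FOXA1 and GATA3, luminal transcription factors, stood at 3.41 ± 0.192 and 2.48 ± 0.154 RPKM. ELF5 and KIT, of luminal progenitors, and the milk protein genes CSN2, CSN3 and LALBA had 0 counts as well.

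Keratins of stratified and activated epithelium were among the highest listed genes. S100A2, a calcium-binding protein of basal keratinocytes, had 1788, 1939, 1924 and 2092 RPKM (rank 18), the highest level of all listed genes. KRT6B (1022 ± 15.6 RPKM) and KRT6A (983 ± 23.8 RPKM), the keratins of wounded epidermis, did not differ beyond their spread, and as near-identical genes they can share reads. KRT16 stood at 200 ± 13.3 RPKM. The antimicrobial S100A9 stood at 185 ± 48.5 RPKM and its partner S100A8 at 3.59 RPKM. The small proline-rich genes SPRR1B, SPRR2A and SPRR1A, precursors of the cornified envelope, lay between 48.1 and 66.2 RPKM. Several other markers of epidermal differentiation were near 0: IVL (involucrin) had 0.0119 RPKM, FLG (filaggrin) 0.00225 RPKM, and KRT1, LORICRIN and DSG1 had 0 counts.

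**Figure D2:**
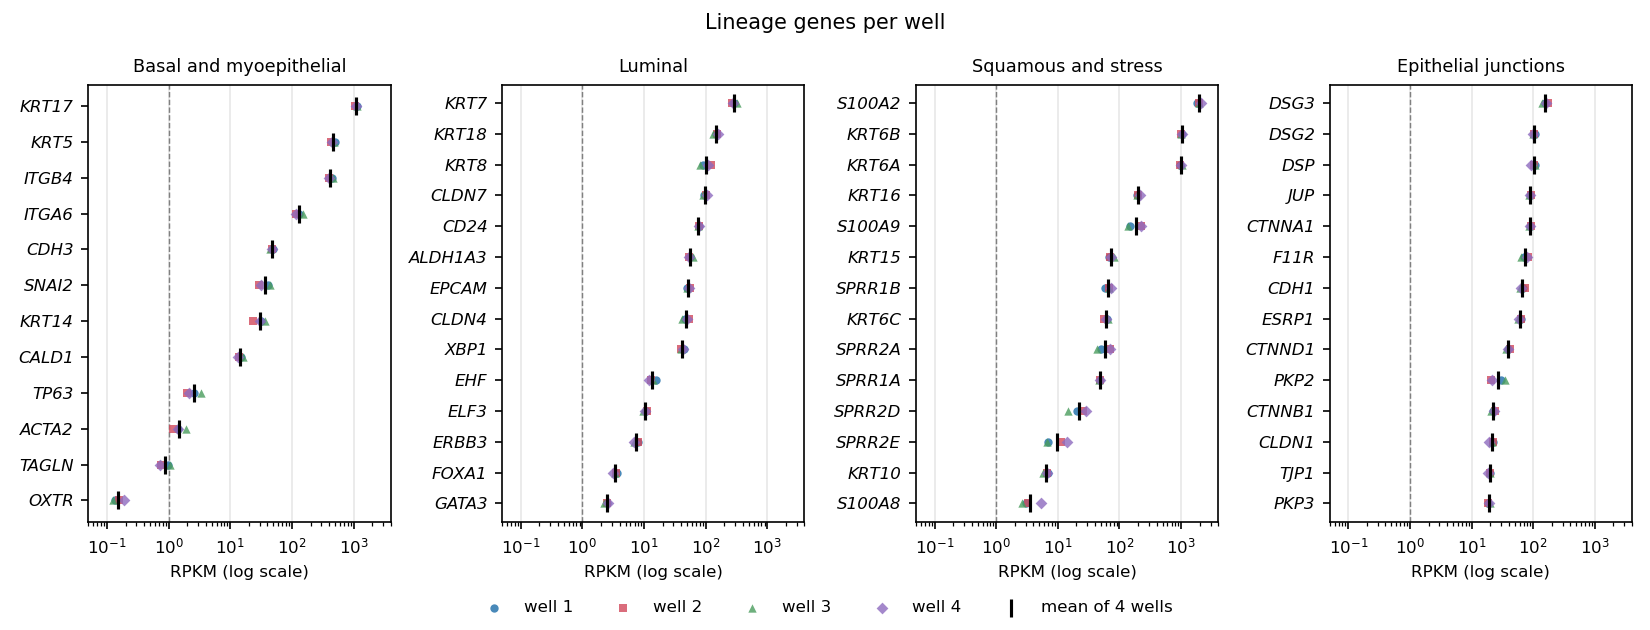
Levels of up to 14 leading genes of 4 lineage lists in each of the 4 wells (RPKM, log axis), with a black bar at the mean and a dashed line at 1 RPKM. Coloured points of a gene lie close together beside the range between genes, with the widest splits for SPRR2E, SPRR2D and S100A9.

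Junction genes were the list with the largest share of its members expressed, with 27 of 29 at 1 RPKM or more and 18 at 10 RPKM or more. Over the union of exons desmosome parts led it: DSG3 had 154, 172, 141 and 163 RPKM, DSG2 averaged 102 RPKM and DSP (desmoplakin) 102 RPKM. DSG3 was higher than DSG2 in each well, but with the median transcript as length the ratio was 0.861. DSG2 and DSP did not differ beyond their spread. JUP (plakoglobin, 88.6 RPKM), CTNNA1 (alpha-catenin, 88.3 RPKM), CDH1 (E-cadherin, 66.8 ± 5.57 RPKM) and the epithelial splicing factor ESRP1 (60.6 RPKM) followed. With another length CTNNA1 led DSG3 (157.7 RPKM), at 203.6 RPKM with the longest and 1349 RPKM with the median transcript. PKP1, a plakophilin of stratified epithelium, was at 0.0158 RPKM, while PKP2 and PKP3 stood at 26.5 and 18.9 RPKM.

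Mesenchymal genes were low apart from VIM. VIM (vimentin), an intermediate filament of mesenchymal cells and of cultured epithelium, had 151, 152, 141 and 158 RPKM (mean 150 ± 6.63, rank 281), which is 89.2% of the summed level of its 11-gene list. Of its exon bases, 24.4% overlap a gene on the other strand. CDH2 (N-cadherin) had 0.0140 RPKM, with 0 counts in wells 1 and 2. The repressors ZEB1 and ZEB2 stood at 0.262 and 0.106 RPKM, SNAI1 at 2.95 RPKM and TWIST1 at 1.35 RPKM. The transcription factor FOXC1 (7.36 RPKM) and the calcium-binding protein S100A4 (5.35 RPKM) were the next highest after VIM.

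Cell cycle genes showed both division and checkpoint transcripts. TOP2A and MKI67, made in dividing cells, stood at 23.6 ± 1.25 and 5.71 ± 0.705 RPKM. CDKN1A, a cyclin-dependent kinase inhibitor, led the list with 104, 112, 99.2 and 121 RPKM, followed by the growth regulator MYC at 87.4 ± 6.95 RPKM, and the cyclin CCND1 stood at 27.8 RPKM. CDKN2A and CDKN2B, inhibitor genes that MCF10A is known to have lost, had 0 counts. HRAS had 72.0, 72.5, 67.9 and 75.5 RPKM, above NRAS (22.3 RPKM) by 3.24 ± 0.0593 times (6.71 with the median transcript as length). The counts of HRAS join the introduced oncogene and the cells' own gene.

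Markers of cells that a pure epithelial culture should lack were near 0. Among 12 immune, 8 endothelial, 10 fibroblast and pericyte and 6 adipocyte markers, 1 gene reached 1 RPKM. That gene was CD68, a lysosomal protein, at 83.3 ± 13.9 RPKM. Of its exon bases, 81.7% overlap another gene on the same strand, and the leucocyte marker PTPRC had 0.00123 RPKM. The summed level per well was 0.618 to 1.42 CPM for endothelial markers, 0.598 to 1.40 CPM for adipocyte markers and 9.82 to 11.7 CPM for fibroblast and pericyte markers. FAP (0.717 RPKM) and COL1A1 (0.546 RPKM) carried the last sum, and COL3A1, PDGFRA, PDGFRB, LUM and THY1 had 0 counts.

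EGFR, the receptor for the EGF in the medium, was the highest ERBB receptor at 18.5, 12.3, 21.0 and 12.4 RPKM (mean 16.1 ± 4.38, rank 2262). Wells 1 and 3 were higher than wells 2 and 4. ERBB3 (7.32 ± 0.646 RPKM), which pairs with other ERBB receptors, and ERBB2 (3.25 ± 0.0918 RPKM), which has no ligand of its own, were lower in each well, and ERBB4 had 0 counts. EGFR stood 4.97 ± 1.43 times above ERBB2, and 3.03 and 3.14 times with the longest and the median transcript as length. With the median transcript ERBB3 (115 RPKM) led EGFR (89.9 RPKM), so the order of these receptors depends on the length.

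Among 37 other receptor tyrosine kinases, 12 reached 1 RPKM and 11 had 0 counts. EPHA2, an ephrin receptor of epithelia, had 105, 96.6, 89.3 and 98.7 RPKM, and MET, the receptor for hepatocyte growth factor, stood at 32.6 ± 3.01 RPKM. These were followed by RYK, a Wnt co-receptor, at 12.2 RPKM, and the ephrin receptors EPHB4 and EPHB3 at 6.66 and 6.30 RPKM. The FGF receptors FGFR1, FGFR2, FGFR3 and FGFR4 were between 0 counts (FGFR3) and 0.5 RPKM (FGFR4).

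Of 15 receptors of the TGF-beta family with a length, 9 reached 1 RPKM, none reached 10 RPKM and 3 were under 0.1 RPKM. ACVR1, a type I receptor for BMPs and activins, stood at 6.74 ± 0.740 RPKM. The TGF-beta receptors TGFBR2 and TGFBR1 stood at 6.42 ± 1.15 and 6.39 ± 0.656 RPKM. Neighbours among these 3 did not differ beyond their spread, and ACVR1 was the highest gene of the list in 2 of 4 wells. ACVR1B, a type I receptor for GDF11 and the activins but not the only one for GDF11, had 3.27, 4.03, 3.36 and 3.83 RPKM. The type II receptors for these ligands, ACVR2B (0.909 ± 0.0631 RPKM) and ACVR2A (0.905 ± 0.132 RPKM), stood lower than ACVR1B. TGFBR2 stood 7.06 ± 1.05 times above ACVR2B (2.46 with the median transcript as length). BMPR2, a BMP type II receptor (4.75 RPKM), and BAMBI, a receptor without a kinase that dampens the pathway (4.26 RPKM), lay between them. TGFBR3 (betaglycan) was at 0.00904 RPKM, and ACVRL1, an endothelial receptor, had 0 counts.

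Integrins and other matrix receptors were the highest receptor genes. ITGB4, the long-tailed beta chain of hemidesmosomes, had 446, 393, 457 and 392 RPKM (mean 422 ± 34.2, rank 114, and rank 38 by CPM). ITGB1, the beta chain shared by most matrix-binding integrins, had 371, 348, 362 and 366 RPKM. ITGB4 was the higher in 4 of 4 wells, by 1.17 times on average, but with the longest transcript as length the ratio was 0.838. Among the alpha chains, ITGA5 (for fibronectin) stood at 161 ± 19.6 RPKM, ITGA6 (for laminin) at 129 ± 16.3 RPKM, ITGA3 (for laminin) at 39.9 ± 2.71 RPKM and ITGA2 (for collagen) at 27.0 ± 7.44 RPKM. ITGB6, which binds latent TGF-beta, stood at 11.8 ± 0.401 RPKM, and 20.6% of its exon bases overlap another gene on the same strand. ITGB2, the leucocyte chain, had 0.0191 RPKM.

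SDC1 (syndecan of epithelia) had 630, 545, 690 and 584 RPKM (mean 612 ± 62.4, rank 77) and was the highest receptor gene in each well. SDC4, another syndecan, stood at 250 ± 14.1 RPKM, 2.47 ± 0.391 times lower (8.17 with the median transcript as length). The tetraspanin CD151 (50.4 RPKM) and the hyaluronan receptor CD44 (49.4 ± 0.309 RPKM) did not differ beyond their spread. DDR1, a collagen receptor kinase, stood at 17.0 RPKM.

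Of 19 Notch and Wnt receptors, 11 reached 1 RPKM, none reached 10 RPKM and 5 were under 0.1 RPKM. FZD6 (9.32 RPKM), LGR4 (8.04 RPKM) and NOTCH2 (7.78 RPKM) led the list, and neighbours among these 3 did not differ beyond the spread. NOTCH2 was higher in 4 of 4 wells than the Wnt co-receptor LRP6 (5.35 RPKM), by 0.54 ± 0.05 on the log2 scale. With the median transcript as length LRP6 (93.3 RPKM) led the whole list, so this order depends on the length. The co-receptor LRP5 stood at 3.38 RPKM. LGR5, a stem cell marker in several epithelia, was at 0.0316 RPKM. Among cytokine and death receptors, 22 of 35 reached 1 RPKM. TNFRSF12A, the receptor for TWEAK, led with 59.1, 55.6, 49.6 and 60.3 RPKM. TNFRSF10B, a TRAIL receptor, IFNGR2 (interferon gamma), OSMR (oncostatin M) and IL13RA1 lay between 21.4 and 22.5 RPKM, with no difference between neighbours beyond the spread. With the median transcript as length OSMR (201.6 RPKM) led TNFRSF12A (117.8 RPKM). Of the nuclear receptors, PPARD, a fatty acid sensor, led at 19.9 ± 2.12 RPKM, ahead of the glucocorticoid receptor NR3C1 (11.8 RPKM), PPARG (9.55 RPKM) and the retinoid receptors RARG (5.75 RPKM) and RXRB (5.48 RPKM). With the median transcript as length NR3C1 (67.2 RPKM) led PPARD (25.2 RPKM).

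Secreted genes are described next, and their promoters are shown because several growth factor genes with high levels shared a short motif at a similar place. This motif was chosen with the levels known. The 120 bases before the transcription start were searched for TATAAA, the core of the TATA box, on both strands, in the RefSeq promoter table (GRCh38.p14). A gene was counted where any of its listed starts held it. FGFBP1 (84.0 RPKM), TGFA (48.0 RPKM) and HBEGF (28.3 RPKM), also of the growth factor lists, did not hold it. Of the listed genes, 493 of 666 had an entry. The motif was present in 13 of 34 secreted genes at 10 RPKM or more (38.2%). It was present in 6 of 34 lineage genes (17.6%), 2 of 24 receptor genes (8.33%) and 1 of 11 matrix genes (9.09%) at that level. In the whole table, 1915 of 27305 genes (7.01%) held it. Among listed genes of all categories the share was 19.05% at 100 RPKM or more and 21.7% at 10 to 100 RPKM. It was 10.2% at 1 to 10 RPKM and 13.8% under 0.1 RPKM. No share was computed for secreted genes under 10 RPKM, so a link with level within them was not tested. Of all protein-coding genes it was present in 10.9% at 100 RPKM or more, 4.43% at 10 to 100 RPKM, 3.02% at 1 to 10 RPKM and 12.4% under 0.1 RPKM. A match is a description of the letters and not a site shown to be used.

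Below are the 120 bases before the start of 4 secreted genes with the motif and of 2 receptor genes without an exact match. They run 5′ to 3′ on the gene's strand, with the motif in capitals. Genes were picked by level among those with 1 listed start and few annotated exon bases in this stretch, with some chromosomes left out. The secreted genes were picked for holding the motif, so the display does not compare the categories. The receptor genes ITGB1 and EGFR held the motif but have 2 listed starts each, so they could not be picked. SDC4 held tataag, which differs from the motif in its last base only, at a similar distance from the start. It is therefore not shown to lack a TATA box. The first 3 are neighbouring EGF family ligand genes on chromosome 4.
AREG: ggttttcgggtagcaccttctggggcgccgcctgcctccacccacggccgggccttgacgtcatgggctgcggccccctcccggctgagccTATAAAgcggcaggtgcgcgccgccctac
EPGN: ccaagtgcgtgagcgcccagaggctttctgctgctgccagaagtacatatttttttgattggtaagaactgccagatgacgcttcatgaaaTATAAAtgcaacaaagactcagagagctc
EREG: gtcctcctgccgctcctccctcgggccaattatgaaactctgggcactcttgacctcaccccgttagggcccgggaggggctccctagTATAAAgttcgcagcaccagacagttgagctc
ANGPTL4: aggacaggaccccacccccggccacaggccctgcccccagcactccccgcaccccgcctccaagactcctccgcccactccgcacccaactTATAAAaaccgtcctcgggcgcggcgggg
SDC4: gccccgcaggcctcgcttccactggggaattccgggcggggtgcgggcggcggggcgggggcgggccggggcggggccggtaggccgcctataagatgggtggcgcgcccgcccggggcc
MET: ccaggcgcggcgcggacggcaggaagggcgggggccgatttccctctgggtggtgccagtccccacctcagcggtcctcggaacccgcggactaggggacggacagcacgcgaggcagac
These lie at chr4:74445016-74445135 (AREG, plus strand), chr4:74308350-74308469 (EPGN, plus), chr4:74365025-74365144 (EREG, plus), chr19:8364035-8364154 (ANGPTL4, plus), chr20:45348425-45348544 (SDC4, minus) and chr7:116672076-116672195 (MET, plus). The first base of the motif was 29 bases before the start in AREG, EPGN and ANGPTL4 and 32 bases before it in EREG. SDC4 held 17 CG pairs and MET 14 in these bases, while AREG held 12, ANGPTL4 10, EREG 5 and EPGN 3. Among listed genes at 10 RPKM or more, the median was 10 for secreted and 12 for receptor genes, counting the start with most pairs.

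The EGF family was the ligand family with the most genes at high level relative to its size. Of 11 ligands, 5 reached 10 RPKM, and all 5 bind EGFR. AREG (amphiregulin) had 67.3, 65.1, 79.7 and 71.7 RPKM, and EPGN (epigen) had 61.2, 66.0, 65.2 and 69.1 RPKM. AREG was higher in 3 of 4 wells, and the pair did not differ beyond the spread. TGFA (48.0 ± 6.53 RPKM), EREG (epiregulin, 39.6 ± 5.05 RPKM) and HBEGF (28.3 ± 2.78 RPKM) followed. EGF itself, which was supplied in the medium, had 0.0485 RPKM, and the ERBB3 ligand NRG1 0.273 RPKM.

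Of 33 ligands of the TGF-beta family, 5 reached 1 RPKM and 13 had 0 counts. INHBA, the subunit of activin A, had 53.7, 38.5, 54.9 and 38.0 RPKM (mean 46.3 ± 9.28, rank 841). TGFB1 had 23.7, 15.7, 23.9 and 17.5 RPKM (mean 20.2 ± 4.2). Wells 1 and 3 were above wells 2 and 4 for both, and INHBA stood 2.29 ± 0.115 times above TGFB1 with little change between wells (1.41 with the median transcript as length). BMP2 (4.88 RPKM), GDF15, a stress-induced ligand (4.21 RPKM), and BMP6 (1.95 RPKM) were the others. The ligand GDF11 (chr12:55743280-55757278, plus strand, GRCh38) had 0.927, 0.651, 0.634 and 0.473 RPKM (mean 0.671 ± 0.189, rank 11124). In counts that was 5.81 ± 1.63 CPM, and INHBA stood 71.0 ± 14.6 times above it per length (169 with the median transcript). MSTN (myostatin), the closest relative of GDF11, stood at 0.0680 RPKM.

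Of the antagonists and latent binding proteins, FSTL3, a follistatin-like protein that binds activin and GDF11, was highest and nearly equal in all wells (40.2, 39.1, 38.9 and 39.5 RPKM). NBL1 (25.1 ± 1.41 RPKM) and TWSG1 (9.67 ± 1.59 RPKM), which bind BMPs, followed. FST (follistatin) stood at 2.32 RPKM, and FSTL3 stood 17.1 ± 1.95 times above it. LTBP4 and LTBP3, which tether latent TGF-beta to the matrix, had 3.5 and 2.47 RPKM. WFIKKN1, which binds GDF11 and myostatin, was at 0.0218 RPKM, and WFIKKN2 had 0 counts.

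PCSK5 itself (chr9:75890644-76362339, plus strand, GRCh38) had 53.3, 37.3, 57.9 and 33.1 CPM in wells 1 to 4 (mean 45.4 ± 12, rank 3652 by CPM). The lowest value of wells 1 and 3 lay above the highest of wells 2 and 4. Its counts join the induced allele and any transcripts of the edited gene, which the table does not separate. Per length PCSK5 was 3.57 ± 0.947 RPKM (rank 6508) over all annotated exons. The introduced transcript is not in the annotation, so its level per length is uncertain. FURIN, a convertase of the secretory pathway, was higher at 9.24, 7.09, 9.30 and 7.57 RPKM, by 2.39 ± 0.376 times. With the median transcript as length that ratio was 5.88, and MBTPS1 (65.1 RPKM) then stood above FURIN (54.8 RPKM). Over the union of exons MBTPS1, the site-1 protease, stood at 3.79 ± 0.0712 RPKM and did not differ from PCSK5 beyond the spread. PCSK6 (0.695 RPKM) and PCSK7 (0.566 RPKM) were lower, and the neuroendocrine convertases PCSK1 and PCSK2 had 0.00424 RPKM and 0 counts.

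**Figure D3:**
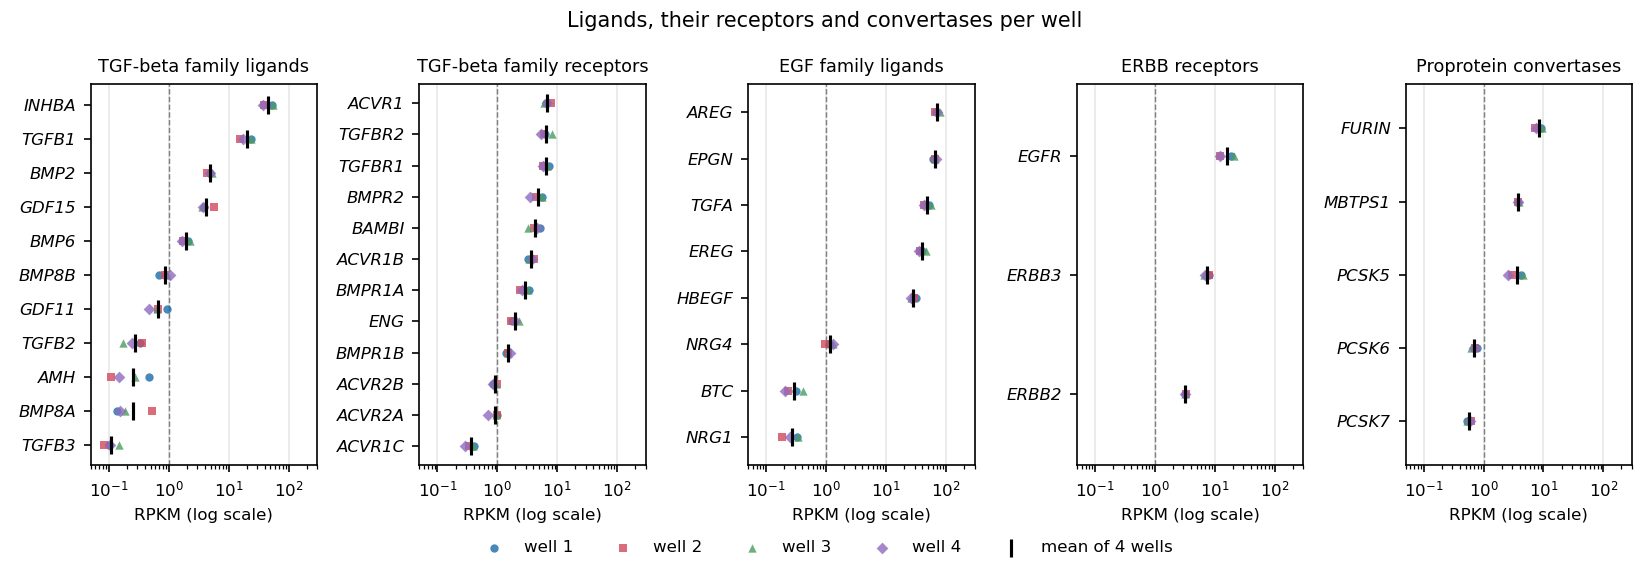
Levels of ligands, receptors and convertases with a mean of at least 0.1 RPKM in each of the 4 wells (RPKM, log axis), with a black bar at the mean and a dashed line at 1 RPKM. Of the TGF-beta family ligands 5 lie right of the dashed line, the receptors of that family all lie below 10 RPKM, and 5 EGF family ligands lie above it.

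Cytokine genes were led by members of the interleukin-1 family. IL18 had 275, 276, 241 and 285 RPKM (rank 168) and IL1A had 278, 226, 300 and 264 RPKM (rank 169). Each was the higher in 2 wells, and they did not differ beyond the spread. IL1A stood 11.5 ± 0.625 times above IL1B (23.3 RPKM), and 6.04 and 2.29 times with the longest and the median transcript as length. MIF stood at 96.1 RPKM, with 61.9% of its exon bases overlapping a gene on the other strand and 32.2% overlapping another gene on the same strand. The neutrophil chemokines CXCL8 (53.4 ± 12 RPKM) and CXCL1 (27.6 ± 5.64 RPKM) and the chemokine CCL20 (22.8 ± 4.74 RPKM) followed. IL6 and TNF were at 0.0266 and 0.0214 RPKM, and CXCL10, CCL2 and CCL5 had 0 counts.

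Other growth factors were led by FGFBP1, a carrier of fibroblast growth factors, at 84.0 ± 6.94 RPKM. ANGPTL4 (21.3 ± 5.11 RPKM), VEGFA (16.9 ± 2.60 RPKM) and ADM (adrenomedullin, 10.7 ± 3.79 RPKM), which hypoxia and other stimuli induce, followed, with the guidance factor SEMA3C at 10.4 RPKM. With the median transcript as length VEGFA (222.5 RPKM) led FGFBP1 (84.0 RPKM). HGF, the ligand of MET, and FGF7 and FGF10, ligands made by stromal cells, had 0 counts. Of 26 Wnt ligands and inhibitors, 4 reached 1 RPKM. The inhibitors DKK1 (17.0 RPKM) and SFRP1 (16.9 RPKM) did not differ beyond the spread and stood above the ligands WNT9A (8.15 RPKM) and WNT7B (6.13 RPKM).

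The list of protease inhibitors and defence proteins stood higher than that of proteases. Of 24 inhibitors and defence proteins, 14 reached 10 RPKM and 7 reached 100 RPKM, whereas 8 of 34 proteases reached 10 RPKM and none reached 100 RPKM. These counts are over the union of exons. With the median transcript as length CTSB (569 RPKM) led CTSD (180 RPKM), both past 100 RPKM. SERPINB5, then the leading gene of the inhibitor and defence list, stood at 6353 RPKM. PI3 (elafin, an elastase inhibitor) had 1015, 957, 1098 and 1068 RPKM (rank 48). SLPI, another inhibitor of neutrophil proteases, had 859, 1015, 761 and 1130 RPKM, and SERPINB5 (maspin) had 854, 840, 880 and 923 RPKM. These neighbours did not differ beyond the spread, and by CPM SERPINB5 was the highest of the 3 (rank 31). SERPINB1, an inhibitor of neutrophil elastase, stood at 285 ± 28.9 RPKM. The leading proteases were CTSD (79.7 RPKM, with 41.7% of its exon bases overlapping another gene on the same strand) and the membrane serine protease PRSS8 (63.8 ± 5.77 RPKM). ADAM9, a membrane metalloprotease, the lysosomal CTSB and ST14 (matriptase) followed at 49.4, 44.4 and 32.9 RPKM. MMP14 stood at 9.06 RPKM and MMP1 at 3.91 ± 2.70 RPKM, and MMP9, MMP12 and MMP13 had 0 counts.

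LAMB3, the beta chain of the hemidesmosome laminin, was the highest matrix gene over the union of exons and the listed gene with the most CPM. LAMB3 had 1064, 1028, 941 and 967 RPKM (mean 1000 ± 56.1, rank 51, and rank 13 by CPM). LAMA3, the alpha chain, had 92.9, 73.6, 101 and 70.3 RPKM (mean 84.4 ± 14.7, rank 472). LAMA3 was higher in wells 1 and 3, and LAMB3 was highest in wells 1 and 2. LAMB3 stood 12.1 ± 2.17 times above LAMA3 per length, and 1.79 times with the median transcript.

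The chains of other laminins were lower. LAMB1 (39.4 ± 2.51 RPKM) and LAMC1 (39.0 ± 1.77 RPKM), which pair in most laminins, did not differ beyond the spread. LAMB3 stood 25.4 ± 0.321 times above LAMB1, and 2.62 times with the median transcript as length. LAMA5, the alpha chain of many adult epithelial basement membranes, stood at 4.13 RPKM, below LAMA3 by 20.3 ± 1.64 times (7.82 with the median transcript). LAMA1, the alpha chain of the laminin in matrigel, which is of mouse origin, had 0.0518 RPKM.

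Among other basement membrane genes, COL17A1, the transmembrane collagen of hemidesmosomes, had 105, 97.3, 102 and 98.3 RPKM (rank 400). PXDN (peroxidasin, which cross-links type IV collagen, 10.5 RPKM) and AGRN (agrin, 9.68 RPKM) followed. The type IV collagen chains COL4A2 (3.53 RPKM), COL4A5 (3.11 RPKM) and COL4A1 (2.28 RPKM) were low, and COL17A1 stood 28.5 ± 0.858 times above COL4A2. That ratio was 11.9 with the longest and 4.95 with the median transcript as length. COL7A1, the anchoring fibril collagen, stood at 0.214 RPKM. The linker genes NID1 and NID2 had 0.0138 RPKM and 0 counts.

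Of 21 other collagens, 3 reached 1 RPKM: COL12A1 (6.30 ± 0.532 RPKM), COL16A1 (1.44 RPKM) and COL6A1 (1.13 RPKM). Among 34 glycoproteins and matricellular proteins, 11 reached 1 RPKM and 2 reached 10 RPKM. THBS1 (thrombospondin, which can release latent TGF-beta) led with 28.8, 24.1, 34.0 and 24.2 RPKM. EFEMP1 (fibulin family, 20.6 RPKM) and TGFBI (9.70 RPKM) came next, ahead of MFGE8 (8.46 RPKM), a protein of milk fat globules, and ECM1 (7.44 RPKM). FN1 (fibronectin) had 6.23, 3.83, 6.52 and 4.18 RPKM, with wells 1 and 3 above wells 2 and 4. TNC (tenascin) stood at 0.380 RPKM, and POSTN, ELN and VTN had 0 counts. Of matrix enzymes, the collagen prolyl hydroxylase P4HA1 was highest at 240 ± 17.8 RPKM. HAS3, a hyaluronan synthase, stood at 24.4 ± 1.25 RPKM, LOX (lysyl oxidase) at 15.5 ± 3.32 RPKM and PLOD1 (lysyl hydroxylase) at 13.9 RPKM, ahead of a second prolyl hydroxylase, P4HA2 (9.01 RPKM).

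**Figure D4:**
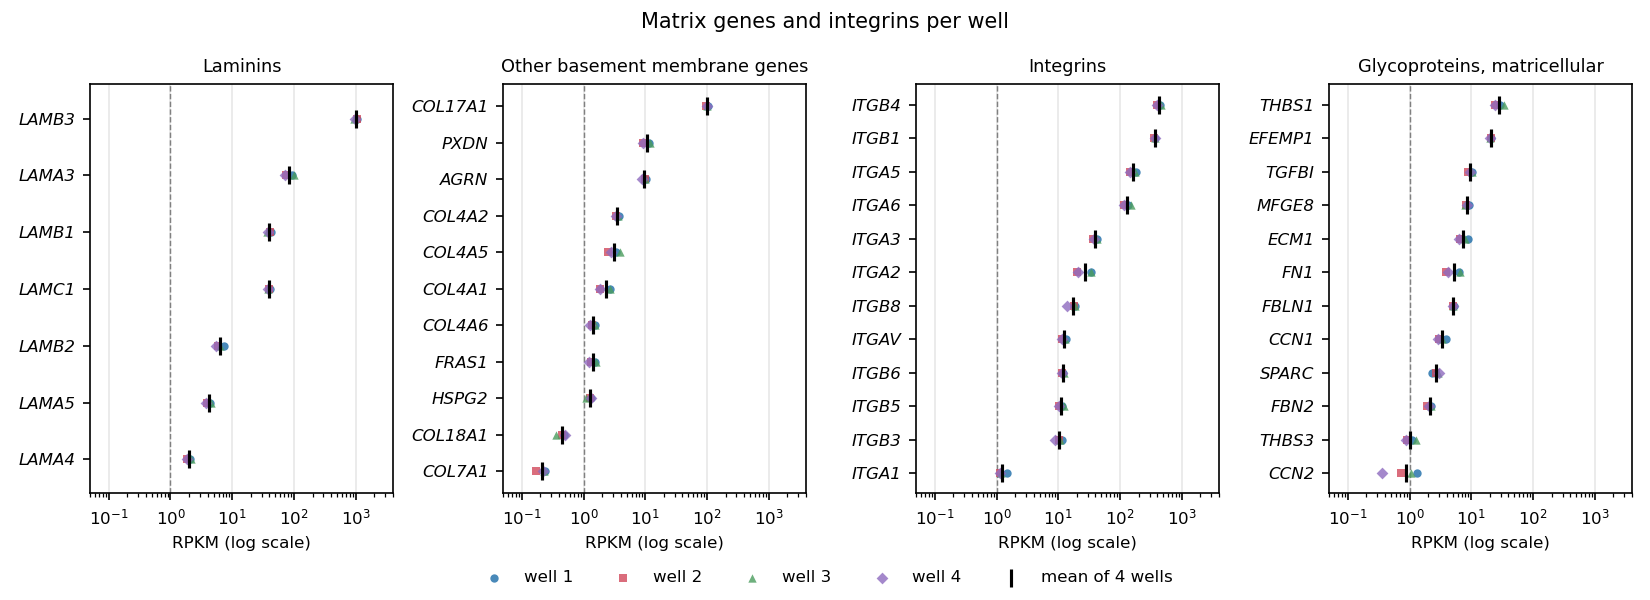
Levels of up to 12 leading genes of 3 matrix lists and of the integrins in each of the 4 wells (RPKM, log axis), with a black bar at the mean and a dashed line at 1 RPKM. LAMB3 lies near 1000 RPKM, LAMA3 and COL17A1 near 100 RPKM, and the type IV collagen chains below 10 RPKM.

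The leading gene of a list was in most cases the same in the other cultures. For 21 of 32 lists the gene that led by mean in these wells also led in each of the other 12 libraries, which carry other PCSK5 alleles or had GDF11. For 186 pairs of neighbours in the order of levels, 126 differed beyond the spread (higher in 4 of 4 wells, and a mean log2 difference above its SD) and 60 did not. This spread does not cover the choice of gene length. No test was run on these orders, since with 4 wells an exact sign-flip test cannot pass a threshold of 0.05.

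The wells were alike but not equal. Log2 CPM correlated between wells at 0.985 to 0.992 over 12609 genes, which share a line and a protocol, with wells 2 and 4 most alike. Among 9524 genes with at least 5 CPM, the median coefficient of variation (CV, SD as a percent of the mean) was 8.86%. It was 8.19% for lineage genes, 9.85% for receptors, 11.1% for secreted genes and 9.19% for matrix genes. Of the 309 listed genes at that level, 47 had a CV of at least 20%. For 37 of these (78.7%), wells 1 and 3 were the 2 highest, and for 8 (17.0%) wells 2 and 4 were. Among all 679 genes with such a CV the shares were 51.4% and 14.9%, and among all 9524 genes they were 25.6% and 29.5%.

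Highest in wells 1 and 3 were 37 genes, among them secreted, matrix and receptor genes. FN1 had 108, 66.2, 113 and 72.4 CPM. IGFBP3, which binds insulin-like growth factors, had 52.0, 21.8, 68.5 and 25.9 CPM (CV 52.6%). PLOD2, a lysyl hydroxylase, and LOXL2, a lysyl oxidase, had CVs of 43.5% and 34.0%. The collagenase MMP1 had 8.89, 4.91, 14.6 and 2.41 CPM (CV 69.1%), the widest spread of these genes. INHBA, TGFB1, EGFR, ITGA2, TP63 and PCSK5 had the same split of wells, as did the receptors FZD8 and DDR2 (CV 38.8% and 31.8%). Each of these genes was lower in both of wells 2 and 4 than in both of wells 1 and 3.

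Among the genes highest in wells 2 and 4 were S100A9, SPRR2A, SPRR2D, SPRR2E, CCL20, the protease inhibitor SERPINA3 and the cyclin CCNE1. S100A9 had 85.2, 131, 80.1 and 131 CPM, SPRR2D 21.5, 26.7, 15.3 and 30.2 CPM and SPRR2E 5.16, 8.24, 4.95 and 10.3 CPM. CCL20 had 31.1, 41.8, 28.5 and 43.7 CPM. SPRR2 genes are near-identical and may share reads, and all 3 of them with such a CV were highest in wells 2 and 4. The share of counts in ribosomal protein genes was 10.2% in wells 1 and 3 and 11.3% and 11.8% in wells 2 and 4, and its part in this pattern was not tested. The 10 genes with most counts took 9.70% and 9.47% in wells 1 and 3 and 10.0% and 10.4% in wells 2 and 4. TMM factors were 0.973 and 1.00 in wells 1 and 3 and 0.955 and 0.940 in wells 2 and 4. Depth was 35.9 and 44.3 M counts in wells 1 and 3 and 40.3 and 32.7 M in wells 2 and 4. The part of these measures was not tested either. Some genes highest in wells 1 and 3 have long annotated exons (FN1 17.3 kb, PCSK5 12.7 kb, EGFR 12.5 kb) and others short ones (MMP1 1.97 kb, CXCL1 1.30 kb). Those of S100A9, SPRR2E and SPRR2D were short (0.577, 0.734 and 1.06 kb). Whether gene length or RNA quality had a part in the split of wells was not tested. The labels name no batch that pairs the wells.

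**Figure D5:**
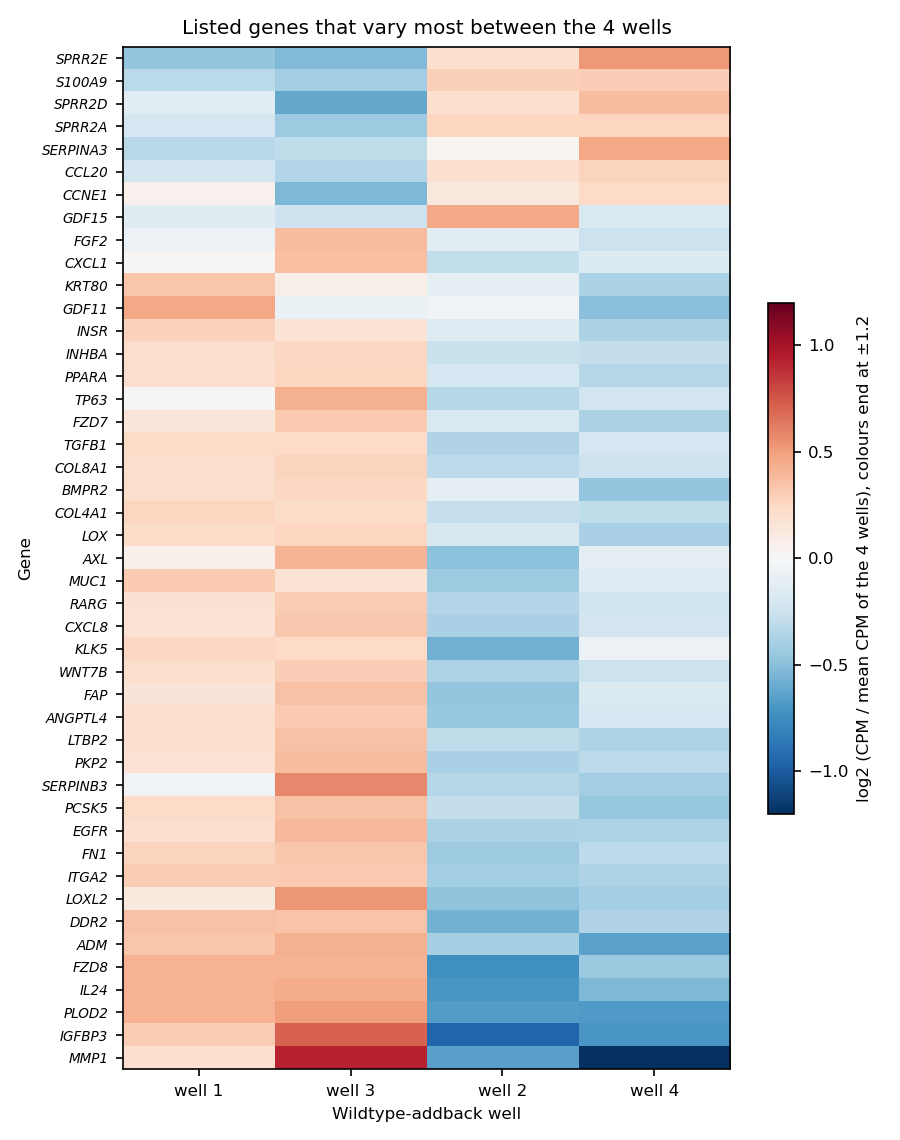
The plot shows 45 of the 47 listed genes with at least 5 CPM and a CV of at least 20%, drawn as log2 of the CPM in a well over the mean of the 4 wells (red above, blue below), with wells 1 and 3 placed side by side. Of the genes drawn, 36 have wells 1 and 3 as the 2 highest and 7 have wells 2 and 4.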

How the data were processed

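RNA was measured by poly(A)-selected sequencing with paired reads of 150 bases, per the labels' protocols. The authors deposited raw counts per gene. The submitters' processing notes name HISAT2, StringTie 2.2.1 and build GRCh38. How reads were counted, with which annotation and strand setting, is not given in the sources used here. Overlapping genes can therefore share reads, and of 168 genes named by rule 54 have exon bases in common with an opposite-strand gene and 15 with a same-strand gene. Near-identical genes can share reads in the same way. Of 78894 genes in the deposited table, 57342 had a length in GENCODE 29, and genes without one held 0.604% to 0.746% of a well's counts.

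TMM factors (edgeR 4.0.16, R 4.3.3) were computed over all 16 libraries from the 16790 genes that passed filterByExpr. CPM and RPKM (over the union of annotated exons) were then computed per well, with mean ± SD of 4 wells. These steps were tested on simulated data. The wells are separate cultures of 1 line, so the SD is the spread between wells, which may be technical. No 2 of the libraries held the same values, and each pair of wells differed by more than counting noise. No test between groups was made. The group to describe (its wells follow from their labels) and the gene lists were chosen with earlier results of these data known. The text names, in every list, up to 5 members with the highest mean RPKM of at least 1, the 12 highest nuclear coding genes outside ribosomal proteins, a set of genes chosen by name (such as PCSK5, GDF11, ESR1 and TP63), and in each of 4 categories the 3 genes with the highest CV among those of at least 5 CPM. Some genes that meet the rule are not reported here. Other genes are named as examples and were chosen after their values were seen. Of 666 listed symbols, 1 (TDGF1) had no length. Alternatives were other scalings, gene lengths, level thresholds, a filter on low counts, and leaving out each well.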

Additional observations from a re-analysis of the deposited data

Results flagged for a closer look

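In 167 values over the 4 wells, 4 had 1 well standing apart from the other 3 by Dixon's gap test at its 95% critical value. Chance gives about 1 in 20 such results. GDF15 had 12.1 CPM in well 2 and 7.42 to 7.97 CPM in the others. TOP2A had 163.9 CPM in well 4 and 147.5 to 148.2 CPM in the others. KRT6B had 2385 CPM in well 4 and 2311 to 2321 CPM in the others. CD24 had 229.7 CPM in well 3 and 237.7 to 239.1 CPM in the others.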

How the results depend on the processing

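No paired analysis was possible because the results describe 1 condition and come from no test. RLE scaling and leaving out each well left every count of genes at a level within 1.5 times its value. Gene length mattered most. With the longest annotated transcript as length, 22 matrix genes reached 10 RPKM (13 with the union of exons) and 2 markers of other cell types reached 1 RPKM (1 with the union). With the median transcript, 248 listed genes (151), 69 receptor (32), 71 secreted (47) and 38 matrix genes (13) reached 10 RPKM, and 4 markers of other cell types reached 1 RPKM. The leading gene was then the same in 18 of 32 lists. Among the lists that changed, CTNNA1, ERBB3, TOP2A, MBTPS1 and LRP6 led in place of DSG3, EGFR, CDKN1A, FURIN and FZD6. NR3C1, OSMR, VEGFA and CTSB led in place of PPARD, TNFRSF12A, FGFBP1 and CTSD. The share of matrix genes at 10 RPKM then passed that of secreted genes. With the longest transcript the leading gene was the same in 27 lists. CTNNA1, ITGB1, NOTCH2, EPGN and SERPINB5 then led in place of DSG3, ITGB4, FZD6, AREG and PI3. By CPM with no length, 272 listed genes, 81 receptor, 77 secreted and 41 matrix genes reached 10 CPM, and 3 markers of other cell types reached 1 CPM. At a threshold of 0.5 RPKM 3 such markers passed. Leaving out a well changed the leading gene in 3 lists, between DKK1 and SFRP1, ACVR1 and TGFBR2, and IL18 and IL1A, pairs that did not differ beyond the spread. Of 165 named levels, 118 moved by more than 1 SD with the longest transcript, 145 with the median transcript and 12 with library totals in place of TMM. Levels near the limit that a count of 0 allows (0.0675 to 0.0975 CPM in a well) rest on few counts and cannot be ordered.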
